A study of Mus musculus with 6 samples.

Results

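Matrix metalloproteinases (MMPs) are zinc-dependent enzymes that cut collagens, laminins, proteoglycans and other proteins outside the cell. Most are secreted as inactive proenzymes whose propeptide must be removed, and tissue inhibitors of metalloproteinases (TIMPs) block the active enzymes. In the injured or tumour-bearing colon most of them come from fibroblasts and leukocytes, while Mmp7 is mainly an epithelial product. The set examined here held 9 MMP genes, Mmp2, Mmp3, Mmp7, Mmp9, Mmp10, Mmp11, Mmp12, Mmp13 and Mmp14, and the inhibitor gene Timp1. They were taken by name from the 19938 genes measured by probe sets with 1 gene symbol, and all 10 were present, each with 1 probe set.

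Expression was measured on 1-colour arrays in 6 mouse colon tumours. The 3 hypomethylated tumours had the genotype Dnmt1chip/c; ApcMin/+, with a hypomorphic (chip) and a knockout (c) allele of Dnmt1, the gene of the maintenance DNA methyltransferase. The 3 control tumours were Dnmt1chip/+; ApcMin/+, so they too carried 1 chip allele and were not wild type for Dnmt1. ApcMin, a truncating allele of the Wnt pathway suppressor Apc, was present in every mouse. All mice were F1 hybrids of a C57BL/6 parent with the c and ApcMin alleles and a 129Sv4 parent homozygous for chip, received 2% (w/v) dextran sodium sulfate (DSS), which injures the colon, at 6 weeks of age, and gave tumours at 20 weeks. The design text describes the c over chip genotype as poor in methylation at satellite repeats, and methylation of the genes described here was not measured. The sample descriptions give all 3 hypomethylated tumours 1 shared number and 2 of the 3 control tumours another, and no label says that tumours came from separate mice, so tumours of 1 mouse may stand as replicates and the p-values cover only tumour-to-tumour spread, which may be technical.

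Values are log2 values (a base inferred from their range) from which each probe set's 6-array median had been subtracted. Only differences between tumours can be read from them, so neither the tissue label nor the ranking of MMPs by abundance could be checked. Dnmt1 had -0.37, -0.48 and -0.42 in hypomethylated tumours, against 0.44, 0.52 and 0.37 in control tumours, and fell by 0.87 ± 0.06 (SE; limma, adjusted p = 3.13e-04). Whether its probes cover the regions changed in the chip and c alleles was not known. Apc differed by -0.23 (SE 0.10, adjusted p = 0.115). Over all genes 32.0% passed an adjusted p of 0.05 in limma, 10.7% higher and 21.3% lower in hypomethylated tumours, and in 46.4% the groups did not overlap. The number of arrays limits the precision.

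Of the 10 genes 7 were lower in hypomethylated tumours and none was higher (limma, adjusted p under 0.05), against 21.3% lower and 10.7% higher among all genes. At an unadjusted p of 0.05 the counts were also 7 and 0, against 5391 lower and 2939 higher of all 19938 genes. All 10 belong to the 10142 genes inferred to have had values of 8 or above before centring. In a fit on those genes alone, 3816 were lower and 1662 higher (limma, adjusted p under 0.05), larger shares than among all genes. The same 7 members were lower in that fit. The 7 were the gelatinase genes Mmp2 and Mmp9, the stromelysin gene Mmp10, the collagenase gene Mmp13, Mmp11, the membrane-anchored Mmp14 and the inhibitor gene Timp1. Their decreases ran from 0.58 (Mmp14) to 1.58 (Mmp10) on the log2 scale, which is 1.49-fold to 2.98-fold lower. The median difference of the 10 genes was -0.91, against -0.01 for all genes. Mmp3, Mmp12 and Mmp7 did not pass.

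Start sites of 5 of these genes are shown with 2 sequence features that differ between them, the AP-1 word and the number of CpG dinucleotides. AP-1 is a dimer of Fos and Jun family proteins, and CpG is the dinucleotide that DNMT1 methylates. The sequences are RefSeq promoters of build GRCm38.p6, 250 bases before to 50 after the start site, 5′ to 3′, matched for 8 of the 10 genes. Mmp10 (chr9:7502092-7502391, plus strand), Mmp13 (chr9:7272264-7272563, plus strand) and Mmp11 (chr10:75932453-75932752, minus strand) fell, whereas Mmp3 (chr9:7445572-7445871, plus strand) and Mmp7 (chr9:7691840-7692139, plus strand) did not pass. Capitals mark the AP-1 word TGANTCA, which reads the same on both strands, and the TCF/LEF word ATCAAAG, searched on both strands.
Mmp10: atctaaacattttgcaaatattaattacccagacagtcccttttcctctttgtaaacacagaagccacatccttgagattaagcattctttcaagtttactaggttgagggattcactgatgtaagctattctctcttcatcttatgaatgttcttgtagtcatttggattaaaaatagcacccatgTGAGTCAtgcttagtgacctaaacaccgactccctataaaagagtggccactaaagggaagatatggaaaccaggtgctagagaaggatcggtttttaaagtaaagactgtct
Mmp13: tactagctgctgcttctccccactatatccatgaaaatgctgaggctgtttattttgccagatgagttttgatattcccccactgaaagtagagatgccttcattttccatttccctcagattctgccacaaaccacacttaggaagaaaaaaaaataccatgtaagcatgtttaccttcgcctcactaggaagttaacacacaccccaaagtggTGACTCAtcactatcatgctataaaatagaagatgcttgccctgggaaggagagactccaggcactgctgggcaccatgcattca
Mmp11: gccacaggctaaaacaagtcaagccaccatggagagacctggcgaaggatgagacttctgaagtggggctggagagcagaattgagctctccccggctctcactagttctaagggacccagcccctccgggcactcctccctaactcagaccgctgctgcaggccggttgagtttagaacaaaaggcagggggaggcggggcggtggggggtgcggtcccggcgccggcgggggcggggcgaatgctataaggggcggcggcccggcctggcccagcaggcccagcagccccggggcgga
Mmp3: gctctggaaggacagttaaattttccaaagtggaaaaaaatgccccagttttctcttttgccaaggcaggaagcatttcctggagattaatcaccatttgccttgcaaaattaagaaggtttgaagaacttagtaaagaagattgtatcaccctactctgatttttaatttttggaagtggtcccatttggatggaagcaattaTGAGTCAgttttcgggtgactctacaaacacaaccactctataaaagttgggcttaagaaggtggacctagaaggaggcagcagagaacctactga
Mmp7: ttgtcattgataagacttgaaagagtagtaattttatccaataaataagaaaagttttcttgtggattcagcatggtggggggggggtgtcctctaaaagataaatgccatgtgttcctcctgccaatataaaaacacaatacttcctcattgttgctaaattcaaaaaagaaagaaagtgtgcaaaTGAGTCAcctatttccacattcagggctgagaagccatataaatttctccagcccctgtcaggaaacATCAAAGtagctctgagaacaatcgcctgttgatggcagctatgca

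The AP-1 word began 63 bases before the start site of Mmp10, 35 before that of Mmp13, 46 before that of Mmp3 and 63 before that of Mmp7. It also lay 44 bases before the second of the 2 annotated starts of Mmp12 and was in neither Mmp11, Mmp14 nor Timp1. Of the matched genes, 2 of the 5 with the word and all 3 without it passed the test as lower, beside 21.3% of all genes. The 5 with the word all lie in a cluster of Mmp genes on chromosome 9, and the 3 without it lie elsewhere. The word and the location can therefore not be told apart here. Mmp2 and Mmp9, which also fell, had no matched promoter, and variants of the word were not searched. Whether AP-1 has a part in the differences was not tested. Of 32851 promoters of this length 7.81% held the AP-1 word and 3.73% the TCF/LEF word, which among the 8 genes was found at Mmp7 only. No occurrences of the 2 words overlapped.

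CpG dinucleotides were few in the stretches of Mmp10 (2), Mmp13 (1), Mmp3 (1) and Mmp12 (0 and 3 at its 2 starts), and Mmp7 had 1 and 7. Timp1 had 8, Mmp14 10 and Mmp11 19, where the median promoter had 7. Genes that fell thus had counts both below and above the median, and none of those matched reached the upper quartile of all promoters (20). These words and counts describe the sequence and show no binding or methylation.

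**Figure D1:**
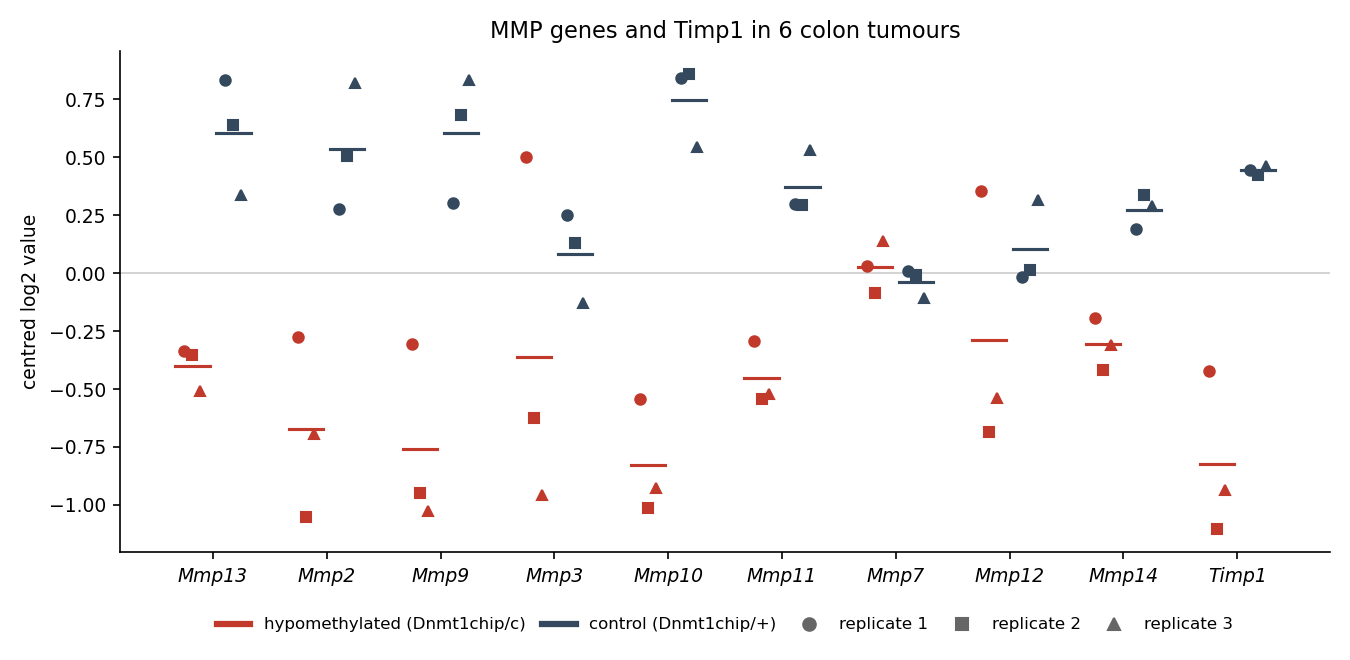
Centred log2 values of the 9 MMP genes and Timp1 in each tumour, with hypomethylated tumours in red left of control tumours in dark blue; symbols give the replicate and bars the group mean (n = 3). In 7 genes every hypomethylated tumour lies below every control tumour. Among all genes the groups did not overlap, in either direction, in 46.4%. Mmp3, Mmp7 and Mmp12 overlap, and hypomethylated replicate 1 is the highest tumour for Mmp3 and Mmp12.

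The stromelysins are secreted enzymes with a broad range of substrates that can also activate other proMMPs. Mmp10, made by epithelium at wound edges and by leukocytes, had -0.54, -1.01 and -0.93 in hypomethylated tumours, against 0.84, 0.86 and 0.54 in control tumours. The groups were 1.09 apart at their nearest tumours, the widest gap of the 10 genes. Mmp10 averaged -0.83 ± 0.25 in hypomethylated tumours and 0.75 ± 0.18 in control tumours (SD, n = 3 each) and fell by 1.58 ± 0.14 (SE), 2.98-fold (limma, adjusted p = 5.75e-04), and its decrease was larger than 98.5% of all differences, of either sign.

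Mmp3, its closest relative, behaved unevenly. Its values were 0.50, -0.62 and -0.96 in hypomethylated tumours, against 0.25, 0.13 and -0.13 in control tumours. Hypomethylated replicate 1 was the highest of all 6 tumours, and the other 2 were the lowest. Mmp3 differed by -0.44 (SE 0.35, 95% interval -1.26 to 0.37, limma adjusted p = 0.389), and without hypomethylated replicate 1 by -0.87 (adjusted p = 0.00569). Without hypomethylated replicate 3 the difference was -0.15 (adjusted p = 0.782). Mmp3 and Mmp10 are similar in sequence and their probes could share transcripts.

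Mmp11, grouped with the stromelysins by name but cleaved inside the cell by furin and typical of stromal cells around carcinomas, had -0.29, -0.54 and -0.52 in hypomethylated tumours, against 0.30, 0.29 and 0.53 in control tumours. All hypomethylated values lay below all control values. The gene fell by 0.83 ± 0.10 (SE), 1.77-fold (adjusted p = 0.00136).

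The gelatinases cut denatured collagen and the type IV collagen of basement membranes. Mmp2, mostly a fibroblast product, had -0.28, -1.05 and -0.70 in hypomethylated tumours, against 0.28, 0.51 and 0.82 in control tumours. Mmp9, released by neutrophils and macrophages, had -0.30, -0.95 and -1.03 in hypomethylated tumours, against 0.30, 0.68 and 0.83 in control tumours. Neither gene's groups overlapped, and in both genes replicate 1 was the hypomethylated tumour nearest to the control tumours and control replicate 1 the control tumour nearest to the hypomethylated ones. Mmp2 fell by 1.21 ± 0.21 (SE), 2.31-fold (adjusted p = 0.0057), and Mmp9 fell by 1.37 ± 0.22, 2.58-fold (adjusted p = 0.00378).

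Mmp14, a transmembrane MMP that cleaves collagen at the cell surface and activates proMMP2, had -0.19, -0.42 and -0.31 in hypomethylated tumours, against 0.19, 0.34 and 0.29 in control tumours. Its decrease was the smallest of the 7, 0.58 ± 0.08 (SE; 1.49-fold, adjusted p = 0.00198). The spread within groups was small, with SDs of 0.11 in hypomethylated and 0.07 in control tumours.

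Mmp13, the main interstitial collagenase of the mouse, had -0.34, -0.35 and -0.51 in hypomethylated tumours, against 0.83, 0.64 and 0.34 in control tumours. It fell by 1.00 ± 0.13 (SE), 2.00-fold (adjusted p = 0.0017). Its order of tumours differed from that of the gelatinases: the hypomethylated tumours were close together, and control replicate 3 was the lowest control.

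Mmp12, the macrophage elastase, had 0.35, -0.68 and -0.54 in hypomethylated tumours, against -0.02, 0.02 and 0.32 in control tumours. As with Mmp3, hypomethylated replicate 1 was the highest tumour of all. The difference was -0.40 (SE 0.26, 95% interval -1.01 to 0.22, adjusted p = 0.307), and without hypomethylated replicate 1 it was -0.72 (adjusted p = 0.00543). Without hypomethylated replicate 2 it was -0.20 (adjusted p = 0.665).

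Mmp7, or matrilysin, is a small MMP of glandular epithelium, known as a Wnt target in intestinal adenomas and in the mouse as the enzyme that activates Paneth cell defensins. Its values were 0.03, -0.09 and 0.14 in hypomethylated tumours, against 0.01, -0.01 and -0.11 in control tumours. The 6 tumours spanned only 0.25, the narrowest range of the 10 genes, and the groups overlapped. The difference was 0.06 (SE 0.07, 95% interval -0.11 to 0.24, adjusted p = 0.574), an interval that does not reach the size of any of the 7 decreases. Its probe set, like those of the other 9 genes, sat on the coarser numeric step taken as a sign that all values were 8 or above before centring, an inference that chance can mimic.

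Timp1 encodes a secreted inhibitor of most MMPs that is induced by inflammation and wounding. It had -0.42, -1.11 and -0.94 in hypomethylated tumours, against 0.45, 0.42 and 0.46 in control tumours. The control tumours were almost equal (SD 0.02) and the hypomethylated tumours were all lower and more spread (SD 0.36). Timp1 fell by 1.27 ± 0.16 (SE), 2.40-fold (adjusted p = 0.00179), so that the gene of an inhibitor was lower in the same tumours as those of the enzymes. Timp1 lies within the annotated gene Syn1, which differed by 0.00 (SE 0.08, adjusted p = 0.978).

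Exact permutation tests over the 20 assignments of 3 against 3, two-sided and for 1 gene at a time, gave p = 0.1 for each of the 7 genes that fell, the smallest this design allows, and p = 0.4 for Mmp3, Mmp7 and Mmp12. The 7 calls held in every alternative fit, including each fit without 1 tumour, and without hypomethylated replicate 1 the lower genes numbered 9, with Mmp3 and Mmp12 added.

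Among hypomethylated tumours, replicate 1 had the highest value in 9 of the 10 genes, all except Mmp7. Among all genes it was highest in 31.1%, and among genes that passed as lower in 54.1%. This tumour therefore had the smallest deficit from the control tumours for each of the 7 genes that fell.

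The 7 genes also differed in how the tumours were ordered within a genotype. For Mmp2, Mmp9 and Mmp11 control replicate 3 was the highest control tumour, while for Mmp10 and Mmp13 it was the lowest. By the highest Pearson correlation over the 6 tumours, a measure dominated by the difference between genotypes, the 3 genes most like Mmp2 were Sparc, Pdlim3 and Tspan4, and those most like Mmp9 were Frmpd1, Dnajc27 and Lpar2. The nearest to Mmp10 were Ric8b, Zfp120 and Ipo7, to Mmp11 Dcaf5, Usp30 and Crtc3 and to Mmp13 Bud23, Syt12 and Ciz1. The nearest to Mmp14 were Ppil4, Fnip1 and Wnt5a, and to Timp1 Ttc7b, Zfp266 and Csrp1. All of these correlations were 0.997 or higher, and between 766 (Mmp2) and 2082 (Mmp10) genes had one above 0.95, so the nearest genes are 1 choice among many.

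Of the other 13 measured Mmp genes 1 rose and 2 fell, near the shares of 10.7% and 21.3% among all genes, with a median difference of -0.01. Only 2 of the 13 sat on the coarser step, where all 10 genes of the set did. Mmp28, or epilysin, an MMP of epithelia, had 0.67, 0.47 and 0.60 in hypomethylated tumours, against -0.47, -0.52 and -0.48 in control tumours. It rose by 1.06 ± 0.07 (SE), 2.09-fold (adjusted p = 2.64e-04), the single measured Mmp gene that passed as higher.

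Mmp20, the enamel protease, fell by 0.44 (adjusted p = 0.00485) and Mmp19 by 0.55 (adjusted p = 0.0359). The Mmp19 call was lost under quantile normalization and without hypomethylated replicate 2, hypomethylated replicate 3, control replicate 1 or control replicate 2. Mmp8, the neutrophil collagenase, differed by -0.35 (adjusted p = 0.239), and by -0.56 without hypomethylated replicate 1 (adjusted p = 0.03). The remaining Mmp1a, Mmp1b, Mmp16, Mmp17, Mmp21, Mmp23, Mmp24, Mmp25 and Mmp27 differed by -0.15 (Mmp23) to 0.12 (Mmp1a) and did not pass. Mmp1a and Mmp1b are close copies whose transcripts the probes could share.

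Of 7 other MMP inhibitor genes 4 fell and none rose (limma, adjusted p under 0.05), beside 21.3% lower and 10.7% higher among all genes. At an unadjusted p of 0.05 the counts were 4 and 0, beside 5391 lower and 2939 higher of all 19938 genes, and the median was -0.33. Timp2, which also takes part in the activation of proMMP2 by MMP14, had -0.24, -0.74 and -0.49 in hypomethylated tumours, against 0.24, 0.27 and 0.43 in control tumours, and fell by 0.80 ± 0.13 (SE; adjusted p = 0.00405). Reck, a membrane-anchored MMP inhibitor, fell by 0.43 (adjusted p = 0.0146) and Timp4 by 0.33 (adjusted p = 0.0134, but 0.0587 without control replicate 1). Timp3, a matrix-bound inhibitor, fell by 1.00 ± 0.30 (adjusted p = 0.0412), a call that failed when any single tumour other than hypomethylated replicate 1 was left out, with the replicate block (adjusted p = 0.0782) and with robust eBayes (0.0603). Hypomethylated replicate 1 was at -0.03, next to control replicate 1 at 0.03. The general inhibitors A2m and Pzp and the Kunitz-type Tfpi2 differed by -0.07, -0.05 and -0.02 and did not pass. Without control replicate 1, 2 of the 7 were lower.

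**Figure D2:**
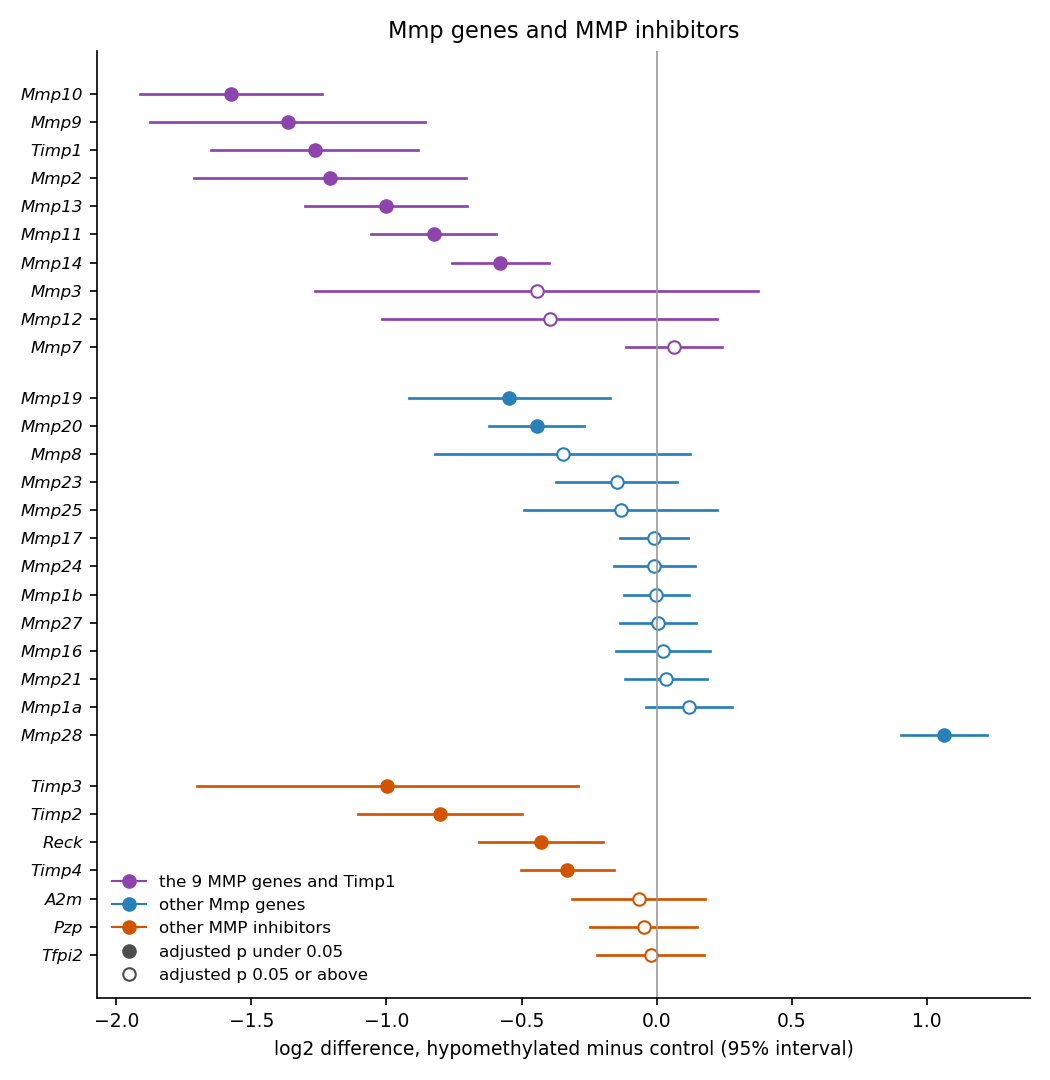
Log2 difference, hypomethylated minus control, with its 95% interval, for the 9 MMP genes and Timp1, the 13 other measured Mmp genes and 7 other MMP inhibitor genes; filled points have an adjusted p under 0.05. The differences of the first group reach -1.58 (Mmp10), Mmp28 at 1.06 is the single filled point right of 0, and all 4 Timp genes are filled and left of 0.

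Mmp7, Mmp3, Mmp10, Mmp12 and Mmp13 belong to a cluster of 10 Mmp genes on chromosome 9, the chromosome that also carries Dnmt1. Of the 10 cluster genes 3 fell (Mmp10, Mmp13 and Mmp20) and none rose (limma; 3 and 0 at an unadjusted p of 0.05), with a median of -0.37, a share lower that is close to the 21.3% of all genes; without hypomethylated replicate 1, 6 fell. In chromosomal order the genes that fell alternated with genes that did not pass: Mmp13 and Mmp10 are separated by Mmp12, Mmp1b, Mmp3 and Mmp1a, whose differences lay between -0.44 and 0.12. Among the 3 measured neighbours on either side, taken by position alone, Dync2h1 fell by 0.42 (adjusted p = 0.00564) and Tmem123 by 0.73 (adjusted p = 0.00817). Ddi1, Dcun1d5, Birc2 and Birc3 differed by -0.09 to 0.03 and did not pass. The other 5 genes of the set lie on chromosomes 2 (Mmp9), 8 (Mmp2), 10 (Mmp11), 14 (Mmp14) and X (Timp1), and all 5 fell.

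**Figure D3:**
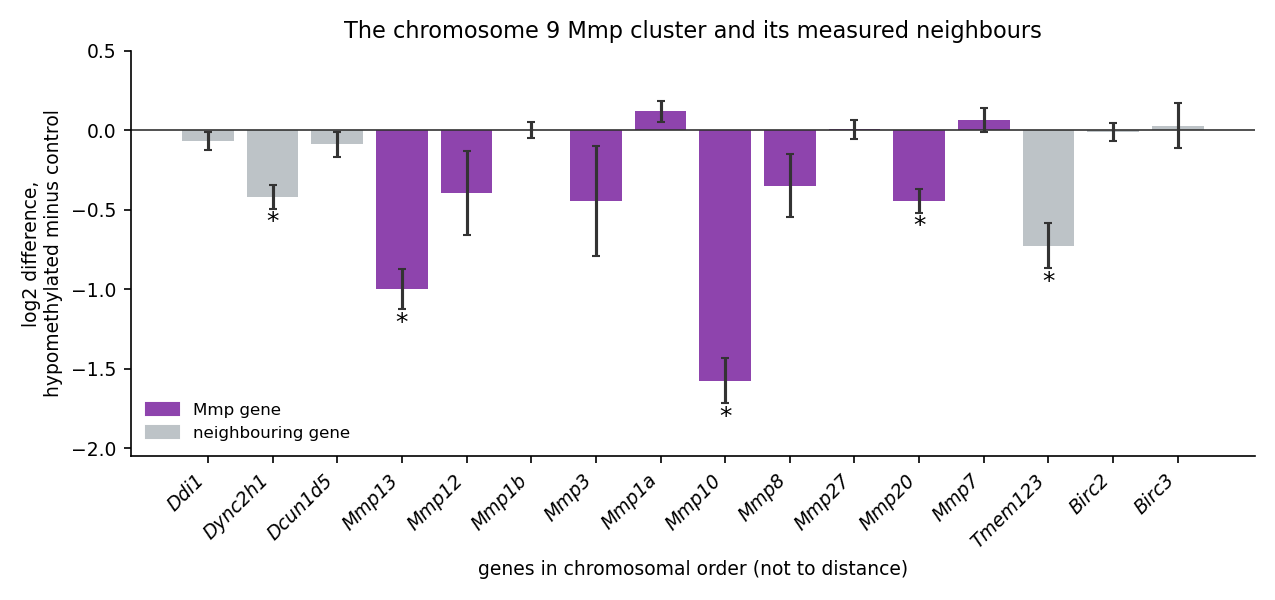
Log2 difference, hypomethylated minus control, with SE bars, for the 10 Mmp genes of the chromosome 9 cluster (purple) and 3 measured neighbours on each side (grey), in chromosomal order and not to distance; asterisks mark an adjusted p under 0.05. Mmp10 (-1.58) and Mmp13 are the lowest points, and Mmp1b and Mmp27 lie near 0.

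Proenzyme activation depends on other proteases. Of 14 measured genes, for activating proteases and the urokinase receptor (Plaur), 3 rose and 4 fell (median 0.10), beside 10.7% higher and 21.3% lower among all genes. The plasminogen activator genes Plau (urokinase) and Plat (tissue-type) fell by 1.40 ± 0.17 and 1.18 ± 0.16 (SE; adjusted p = 0.00148 and 0.00233). Plau had -0.40, -0.98 and -0.90 in hypomethylated tumours, against 0.73, 0.78 and 0.40 in control tumours. The proprotein convertase genes went in both directions. Pcsk5 and Pcsk7 rose by 1.80 and 0.84 (limma, adjusted p = 0.00119 and 7.16e-04). Pcsk6 and Furin fell by 0.37 and 0.23 (limma, adjusted p = 0.0285 and 0.0409). The falling members numbered 2 without hypomethylated replicate 2, control replicate 1 or control replicate 2. Of the plasminogen activator inhibitors only Serpina5 and Serpinb2 had a probe set with 1 gene symbol, and neither passed (limma; 0 at an unadjusted p of 0.05).

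Of 16 genes known to induce MMPs 7 fell and none rose (limma, adjusted p under 0.05), beside 21.3% lower and 10.7% higher among all genes. At an unadjusted p of 0.05 the counts were 10 and 1, beside 5391 lower and 2939 higher of all 19938 genes, and the median was -0.49. The cytokine gene Il11 fell by 1.33 ± 0.18 (SE; adjusted p = 0.00221), and Il17a, Tgfb1, Hgf and Fgf2 fell by 0.68, 0.59, 0.55 and 0.51. Without hypomethylated replicate 1, 11 were lower. Of 15 AP-1, ETS and C/EBP transcription factor genes 2 rose and 5 fell (median -0.07), beside 10.7% higher and 21.3% lower among all genes. The AP-1 subunit genes went in both directions: Fos rose by 0.82 (adjusted p = 0.00481), and Jun fell by 0.24 (adjusted p = 0.0235), a call that needed hypomethylated replicates 2 and 3 and control replicates 1 and 2. The ETS factor genes Etv5 and Ets2 fell by 1.04 and 0.44 and the epithelial Elf3 rose by 0.34. The falling factors numbered 3 without control replicate 3 and 2 without any one other tumour except hypomethylated replicate 1.

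Matrix substrates fell with the enzymes. Of 18 measured substrate genes 11 fell and none rose (limma, adjusted p under 0.05), beside 21.3% lower and 10.7% higher among all genes. At an unadjusted p of 0.05 the counts were 16 and 0, beside 5391 lower and 2939 higher of all 19938 genes, and the median was -0.60. Tnc (tenascin C) fell by 1.39 ± 0.15 (SE; adjusted p = 0.0011), the basement membrane genes Nid1 and Col4a1 by 1.03 and 0.74, Sparc by 0.91 and Fn1 (fibronectin) by 0.47. Without hypomethylated replicate 3, 7 fell. Of 9 surface partners of MMPs and TIMP1, 1 rose and 2 fell, shares close to those of all genes. Itgb3 and Cd151 fell by 0.76 and 0.33 (Cd151 not without control replicate 1), and the TIMP1 receptor gene Cd63 rose by 0.24 (adjusted p = 0.0381), a call lost without each tumour except hypomethylated replicate 1.

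Genes of other metalloproteinase families went in both directions. Of 18 ADAM, ADAMTS and meprin genes 3 rose and 7 fell (median -0.19), beside 10.7% higher and 21.3% lower among all genes. The meprin genes Mep1a and Mep1b, proteases of the epithelial brush border, rose by 3.47 ± 0.45 and 3.46 ± 0.21 (SE; adjusted p = 0.00192 and 2.40e-04). Adamts9, Adamts4 and Adam12 fell by 1.49, 0.70 and 0.72. Adam9 rose by 0.33 (limma, adjusted p = 0.00631), so the ADAM genes themselves went in both directions.

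Markers of several cell types moved with the MMP genes, and in whole tumours fewer cells of a type and less RNA per cell cannot be told apart. Each marker count stands beside 21.3% lower and 10.7% higher among all genes. At an unadjusted p of 0.05 the counts over all 19938 genes were 5391 lower and 2939 higher. Fibroblast markers fell in 6 of 10 cases and rose in 1 (median -0.62), with Pdgfrb and Pdgfra at -1.22 and -0.89 and Fap at 0.33. Their mean centred value was -0.57 to -0.05 in hypomethylated tumours and 0.07 to 0.46 in control tumours. Without hypomethylated replicate 3, control replicate 2 or control replicate 3 the falling fibroblast markers numbered 2, 3 and 3. Col1a1, Col1a2, Col3a1 and Dcn are also in the list of matrix substrates, so the counts of fibroblast markers and substrates are not separate results. Endothelial markers fell in 5 of 8 and rose in 1, led by Emcn (-0.91), Cdh5 (-0.91) and Tek (0.55), with mean values of -0.38 to -0.05 in hypomethylated tumours and 0.05 to 0.18 in control tumours. The falling ones numbered 3 without hypomethylated replicate 2 and 2 without hypomethylated replicate 3, control replicate 2 or control replicate 3. Smooth muscle markers fell in 3 of 8 and rose in none (limma; 4 and 0 at an unadjusted p of 0.05), among them Tagln (-0.58) and Actg2 (-0.66), with mean values of -0.25 to -0.08 in hypomethylated tumours and 0.10 to 0.30 in control tumours.

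Leukocyte markers differed by type, and their counts stand beside 21.3% lower and 10.7% higher among all genes. Their unadjusted counts stand beside 5391 lower and 2939 higher of all 19938 genes. Macrophage markers fell in 4 of 10 and rose in none (limma; 6 and 0 at an unadjusted p of 0.05), with C1qc, Ms4a7 and C1qb at -0.92, -0.66 and -0.94. Their mean was -0.74 to 0.02 in hypomethylated tumours and -0.02 to 0.42 in control tumours, the highest hypomethylated value being that of replicate 1, and the falling markers numbered 8 without that tumour and 0 without any other one. Of 10 neutrophil markers Ly6g rose by 1.10 and Ngp fell by 0.78, calls lost without hypomethylated replicate 2, hypomethylated replicate 3 or control replicate 1. The abundant neutrophil genes S100a8 and S100a9 differed by 0.07 and 0.31, and the list's mean was -0.06 to 0.26 in hypomethylated tumours and -0.13 to 0.03 in control tumours. T and NK cell markers held no call in 8 (limma; 1 higher and 0 lower at an unadjusted p of 0.05) and a mean of -0.28 to 0.38 in hypomethylated tumours and -0.11 to 0.16 in control tumours, with 2 lower without hypomethylated replicate 1, 1 higher without hypomethylated replicate 2 and 1 higher without hypomethylated replicate 3. Of 8 mast cell markers 1, Cma1, fell (-0.39), with a list mean of -0.34 to 0.04 in hypomethylated tumours and -0.08 to 0.40 in control tumours; the falling markers numbered 2 without hypomethylated replicate 1 and 3 without control replicate 2. Centred values cannot show which of these markers are absent.

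Epithelial markers were higher in 8 of 10 and lower in none (limma, adjusted p under 0.05), beside 10.7% higher and 21.3% lower among all genes. At an unadjusted p of 0.05 the counts were 8 and 0, beside 2939 higher and 5391 lower of all 19938 genes. The list's mean was 0.33 to 0.56 in hypomethylated tumours and -0.71 to -0.36 in control tumours. Cdx2, Krt20, Vil1 and Cldn7 rose by 3.49, 3.52, 1.02 and 0.52, and the remaining rises that passed were smaller. Epcam and Krt18 differed by 0.06 and -0.02 and did not pass, so the list mean rests largely on Cdx2 and Krt20. Of 6 Paneth cell markers Itln1 rose by 0.92 and Lyz1 fell by 0.43, beside the overlapping values of Mmp7, and the mean was -0.06 to 0.36 in hypomethylated tumours and -0.12 to 0.15 in control tumours. The Itln1 call was lost without each tumour except hypomethylated replicate 1, and that of Lyz1 without hypomethylated replicate 1, hypomethylated replicate 2 or control replicate 1. The part of these cell types in the differences of the MMP genes was not tested.

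**Figure D4:**
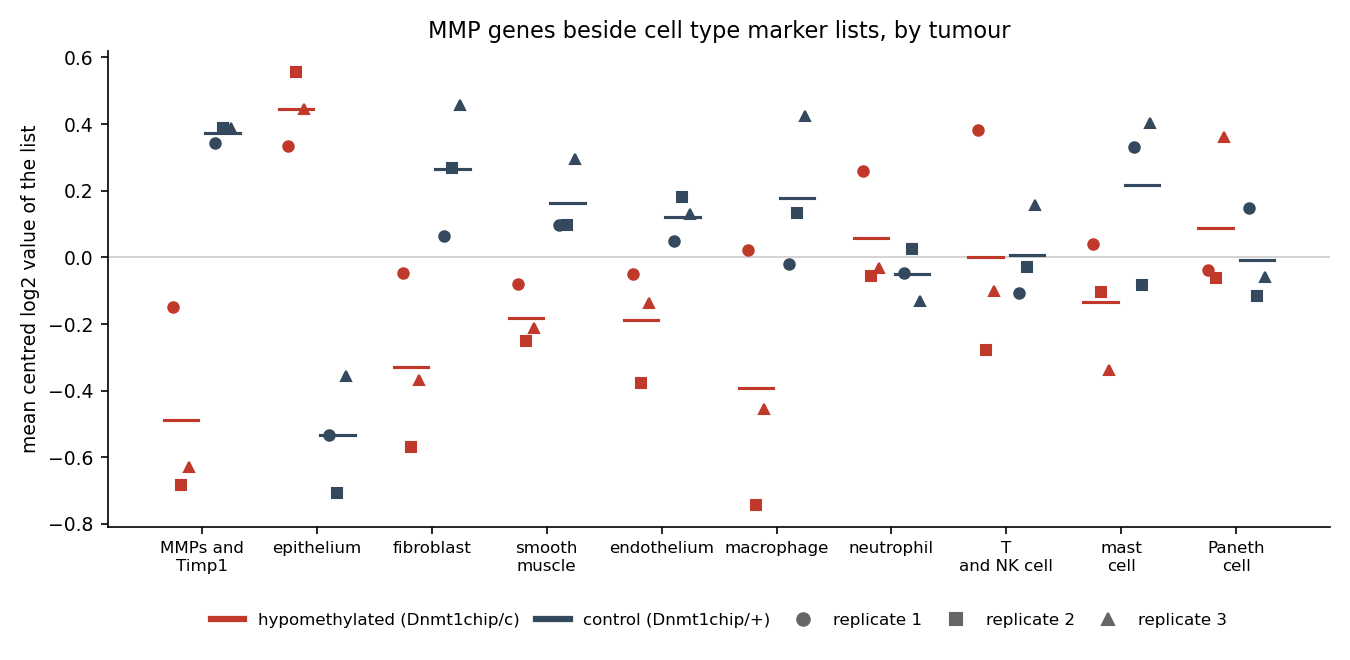
Mean centred log2 value, per tumour, of the 10 MMP and inhibitor genes and of 9 cell type marker lists, with hypomethylated tumours in red left of control tumours in dark blue; symbols give the replicate and bars the group mean (n = 3). The MMP and Timp1 mean is -0.68 to -0.15 in hypomethylated tumours and 0.34 to 0.39 in control tumours, and fibroblast, smooth muscle and endothelial lists are likewise lower in every hypomethylated tumour, whereas the macrophage list overlaps through hypomethylated replicate 1.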

How the data were processed

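RNA of 6 colon tumours was biotin-labelled and hybridised to arrays, per the labels' protocols. The table that the authors deposited holds log2 values for 28856 probe sets, each centred on its median over the 6 arrays. The log base was inferred, and how arrays were normalized and probe sets summarised is not given in the sources used here. The 21789 probe sets with 1 gene symbol in the platform annotation, updated by Entrez number to RefSeq names (GRCm38.p6), were averaged per gene, giving 19938 genes. Genotypes follow the titles. All genes were tested with limma 3.58.1 (R 4.3.3; lmFit and eBayes without trend or block, two-sided, Benjamini-Hochberg over all genes, threshold 0.05), tested on simulated data first. Centred values allow no intensity filter. A probe set whose values were all multiples of a coarser step (within 0.2 of a step) was taken to have had values of 8 or above. Alternatives were the replicate number as a block, quantile normalization, median centring, array weights, robust eBayes, genes with values of 8 or above, genes with 1 probe set, thresholds of 0.01 and 0.1, and leaving out each tumour.

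The members, the 10 pathway and 9 marker lists and the rule for named genes (all Mmp and inhibitor genes, up to 5 members of each other pathway list and up to 3 of each marker list by smallest p, Dnmt1, Apc and the 3 genes most correlated with each member that passed) were chosen with earlier results of these data known. S100a8, S100a9, Krt20, Epcam, Krt18, Plaur, Pcsk6, Furin, Adam9, Col1a1, Col1a2, Col3a1, Dcn, Syn1 and the cluster's neighbours were named outside this rule. All of these except Plaur, Syn1 and the neighbours were named after their values were seen. There is no read depth for arrays.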

Additional observations from a re-analysis of the deposited data

How the results depend on the processing

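The decreases of Mmp2, Mmp9, Mmp10, Mmp11, Mmp13, Mmp14 and Timp1 passed in the 13 alternative fits, with 7 lower genes also at 0.01 and 0.1. The fits on genes of 8 or above and on genes with 1 probe set left the members' values and differences unchanged. Array weights were uneven, at 7.69 for control replicate 1 and 0.51 to 0.99 for the other tumours. Over the 13 fits the differences ran from -1.95 to -1.48 for Mmp10 and -0.64 to -0.52 for Mmp14. The highest adjusted p of the 7 genes in limma was 0.0226 (Mmp2). Mmp3 and Mmp12 changed their call only without hypomethylated replicate 1, as given above. The count of members lower without 1 tumour was 7 to 9, and of members higher 0. No member changed sign. Over all genes the counts of 2124 higher and 4256 lower became 1192 and 2319 at 0.01, and ran from 1407 to 2323 higher and 2792 to 4270 lower without 1 tumour; the count of lower genes with the replicate block was 2714. No label says whether same-numbered tumours share more than a number. Deviations of same-numbered tumours from their group means correlated at -0.29, -0.31 and -0.22 over genes, the others at 0.05 to 0.29. Deviations within a group depend on each other, so these correlations cannot show whether a number marks a pair or a batch. The block changed no call of the 10 genes (limma, adjusted p = 0.0211 for Mmp9). Among the lists, the lower fibroblast, endothelial and macrophage markers numbered 3, 2 and 1 with the replicate block, and the lower activating proteases and factors 2 and 2. At 0.01 the lower substrates and inhibitors numbered 5 and 1. With only genes of 8 or above, which leaves fewer genes, the lower inducers numbered 4 of 12 and the lower inhibitors 2 of 2. The higher ADAM-type genes numbered 1 of 8 in that fit. Of all 18 they numbered 6 with array weights, 5 at 0.1 and 3 as reported. With array weights the higher T and NK cell markers numbered 2 and the lower smooth muscle and mast cell markers 5 and 4. Genes near 0 that did not pass changed sign, and the cause was not tested. Mmp21 ran from -0.00889 to 0.0692 without 1 tumour. Mmp16 ran from -0.0337 to 0.0687 without 1 tumour. Mmp17 ran from -0.0352 to 0.0116 without 1 tumour. Mmp24 ran from -0.0437 to 0.0285 without 1 tumour. Mmp27 ran from -0.0316 to 0.0387 without 1 tumour and was -0.0203 with array weights. Mmp1b ran from -0.0142 to 0.0162 without 1 tumour and was 0.00723 under quantile normalization, 0.00276 with each array centred on its median and 0.00371 with array weights. A2m ran from -0.148 to 0.0212 without 1 tumour. Tfpi2 ran from -0.0759 to 0.0508 without 1 tumour and was 0.0406 with array weights. Signal over background was not given, so how far dim genes can fall is unknown.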
